A study of Mus musculus with 5 samples.

Results

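The genes described are 9 regulators of myeloid and erythroid blood cells in mouse: Cebpa, Cebpb, Csf1r, Csf3r, Csf2ra, Klf4, Gfi1, Gfi1b and Tal1. They were listed by name, with earlier results of these data known, and are 9 of 21521 protein-coding genes placed on chromosomes 1 to 19 and X. What was read at each gene is whether the list of EBF1 sites from a chromatin immunoprecipitation (ChIP-seq) of pro-B cells places a site there. A site was given to a gene when its centre lay inside the gene's RefSeq span on GRCm38, or, when it lay in no protein-coding gene, to the nearest one within 100 kb.

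The series holds 5 libraries in 5 groups of 1 library. All come from fetal liver cells of genotype Ebf1-/-, which lack their own EBF1 and received it by transduction, labelled as pro-B cells. The groups are EBF1 ChIP with EBF1 wt, EBF1 ChIP with the form called YmA, BRG1 ChIP with YmA, and an input for each antibody, both labelled EBF1 wt. The site list used below is that of 1 library, the EBF1 ChIP with EBF1 wt, and the other libraries were not analysed here. Its list holds 7494 sites on 20 chromosomes, each 300 bp wide, with a class given by the authors: YmA-dep, YmA-ind or CTD-ind. No source used here says how the classes were made, or from which libraries, so the names serve as labels. The list has no height, score or depth per site, nothing has a replicate, and no test between groups is possible. Because EBF1 was supplied by transduction, its amount may differ from that of cells with their own gene, and this was not measured. The labelled cell type could not be checked by expression. Of the marker genes chosen for pro-B cells (Cd79a, Cd79b, Vpreb1, Igll1, Pax5 and Blnk), 6 of 6 had a site. The counts were 1 of 4 for myeloid cells (Itgam) and 0 of 4 for erythroid cells, beside 19.6% of all coding genes. An EBF1 site is not a measure of expression, so these counts do not check the cell type.

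EBF1 is a transcription factor that commits blood progenitors to the B lineage. In that role it is known to act against other fates, and Cebpa, the factor that starts granulocyte and macrophage development, is among the genes it is known to restrain. The regulators listed here sit at the branch points of that choice. C/EBP factors and KLF4 promote myeloid maturation, the CSF receptors carry the signals of macrophage and granulocyte growth factors, GFI1 and GFI1B are zinc-finger repressors of granulocytic and of erythroid and megakaryocytic cells, and TAL1 is a basic helix-loop-helix factor needed for blood stem cells and red cells.

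EBF1 sites were found at 4 of the 9 regulators: Cebpb had 5, Gfi1b had 3, Klf4 had 2 and Csf3r had 1. Cebpa, Csf1r, Csf2ra, Gfi1 and Tal1 had none. Over all protein-coding genes, 19.6% had a site by the same rule, so 4 of 9 (44.4%) stood above that share, with no test made. That order depends on the rule and on the distance. Counting any site inside a gene or within 100 kb left the regulators at 4 of 9, below the 53.4% of all coding genes. Within 10 kb, the same way of counting gave 3 of 9, above the 22.3% of all coding genes. The median was 0 sites per gene for the regulators and 0 for all coding genes. Most of the 11 sites were far from the gene they were given to: 3 lay inside the gene or within 10 kb, at Cebpb (1) and Gfi1b (2). That is 2 of 9 genes, near the 17.0% of all coding genes with an assigned site that close. With a limit of 20 kb, 2 genes and 5 sites were left. When genes of any type competed for a site, long noncoding RNA genes and a small nuclear RNA gene took most of them, and only 2 sites at Cebpb were left.

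**Figure D1:**
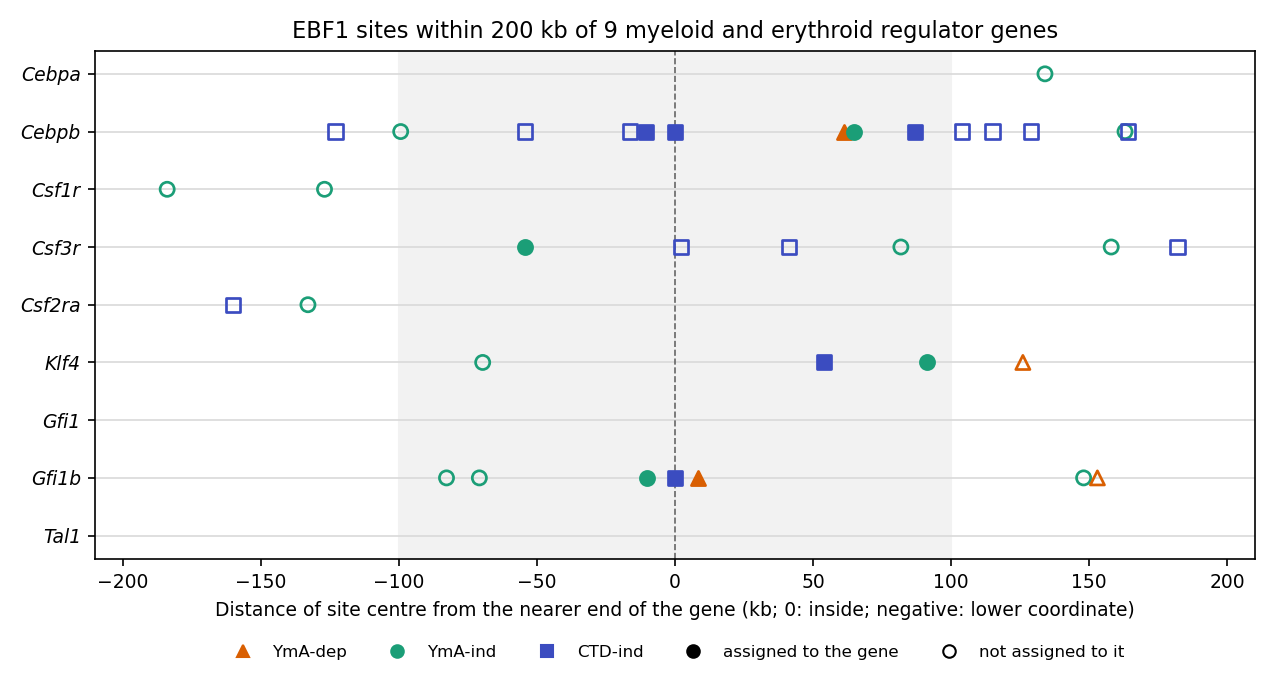
EBF1 sites within 200 kb of each regulator gene, 1 gene per line, by distance of the site's centre from the nearer end of the gene in kb (0 is inside, negative is towards lower coordinates). Filled symbols are the 11 sites given to the gene, open symbols are sites given to another gene or to none, shapes and colours are the authors' classes, and the grey band is the 100 kb limit; the lines of Gfi1 and Tal1 are empty.

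Cebpb, which encodes C/EBP-beta, a factor of macrophage maturation and inflammatory gene expression, had the most sites of the 9. It is a short gene of 1.52 kb at chr2:167688915-167690432, on the plus strand. A CTD-ind site at chr2:167688560-167688859 was centred 205 bp before its start and 1.72 kb from its other end. A second CTD-ind site at chr2:167678235-167678534 was centred 10.5 kb before the start, just outside the 10 kb flank. The other sites lay beyond the end of the gene: a YmA-dep site at 61.2 kb (chr2:167751532-167751831), a YmA-ind site at 65.0 kb (chr2:167755238-167755537) and a CTD-ind site at 87.0 kb (chr2:167777264-167777563). With 5 sites, Cebpb stood with the 0.869% of coding genes that had as many or more.

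The site before the start of Cebpb shares 195 bases with the gene's RefSeq promoter window, which runs from 250 bases before the start to 50 after it (build GRCm38.p6). These bases, all before the start, are shown because they are the part of the promoter that the EBF1 site covers. The stretch is chr2:167688665-167688859, plus strand, and 82.6% of its bases are G or C. Capitals mark its single match to CCCNNGGG (N is any base), the inner part of the palindrome that EBF proteins are known to bind. The longer form searched has a T before these letters and an A after them.
Cebpb: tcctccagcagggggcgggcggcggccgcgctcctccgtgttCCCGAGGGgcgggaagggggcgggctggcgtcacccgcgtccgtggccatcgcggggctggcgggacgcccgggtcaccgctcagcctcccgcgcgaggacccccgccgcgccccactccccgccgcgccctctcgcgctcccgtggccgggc
The match, at chr2:167688707-167688714, ran from 208 to 201 bases before the start and covered the centre of the site. It was not a match to the longer form. Both forms read the same on both strands, and each longer match holds a shorter one. The shorter form was found in 13.8% of 32619 promoter windows: in 46.3% of the 680 that share a base with an EBF1 site and in 13.1% of the rest. The longer form was found in 11.2% of windows with a site and in 0.689% of the rest.

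Around Cebpb the sites ran on past the 100 kb limit. The space between Cebpb and the next coding gene at higher coordinates, Ptpn1, which encodes the tyrosine phosphatase PTP1B, is 240.3 kb long and held 9 sites: 5 CTD-ind, 3 YmA-ind and 1 YmA-dep. Of these, 3 were given to Cebpb and 3 to Ptpn1. Another 3, all CTD-ind and centred 103.6, 114.7 and 129.2 kb from Cebpb, were over 100 kb from every coding gene and given to none. Only 15 of 19388 spaces between coding genes (0.0774%) held as many sites, while 6.65% were as long. The space on the other side, 27.4 kb up to Tmem189, held 3 sites, all CTD-ind, of which the one 16.4 kb from Cebpb was given to Tmem189. Beyond it, a CTD-ind site at 54.3 kb and a YmA-ind site at 99.4 kb were given to Ube2v1. In all, 8 sites lay within 100 kb of Cebpb, and 1.77% of coding genes had that many.

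Cebpa, at chr7:35119293-35121928, encodes C/EBP-alpha. No listed site lay within 100 kb of it. The spaces on its sides, 61.6 kb towards Gm45095 and 64.2 kb towards Slc7a10, held 0 sites. The nearest, a YmA-ind site at chr7:35256074-35256373, lay 134.3 kb away inside another gene, Wdr88, with Slc7a10 and Lrp3 in between, and 58.8% of coding genes had a nearer site. In the promoter window of Cebpa neither motif matched. The 2 C/EBP genes thus differed in this list, with 5 sites at Cebpb and 0 at Cebpa. Read depth is unknown, and a gene without a listed site cannot be read as unbound.

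Gfi1b, the repressor gene of erythroid and megakaryocytic cells, was the only regulator with a site centred inside it. The gene spans 12.5 kb at chr2:28609450-28621982 on the minus strand, so that its start is the higher coordinate. A CTD-ind site at chr2:28621750-28622049 was centred 82 bp inside the gene from its start and 12.4 kb from its other end. The noncoding gene Gm52548 also holds that centre. A YmA-dep site at chr2:28630278-28630577 was centred 8.45 kb before the start, in the space towards Tsc1, which encodes the growth inhibitor hamartin. Past the far end of Gfi1b, a YmA-ind site at chr2:28599217-28599516 was centred 10.1 kb away, just outside the 10 kb flank. All 3 classes were thus present at Gfi1b, and 2.99% of coding genes had 3 or more sites.

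The site at the start of Gfi1b shares 117 bases with its promoter window, and 67 of these lie before the start. They are shown, at chr2:28621983-28622049 on the minus strand, for comparison with Cebpb. They hold no match to CCCNNGGG, so nothing is in capitals, and 49.3% of the bases are G or C.
Gfi1b: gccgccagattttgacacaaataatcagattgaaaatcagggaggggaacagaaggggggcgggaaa
The centre of this site lies beyond the window, inside the gene, and the sequence there was not used here.

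**Figure D2:**
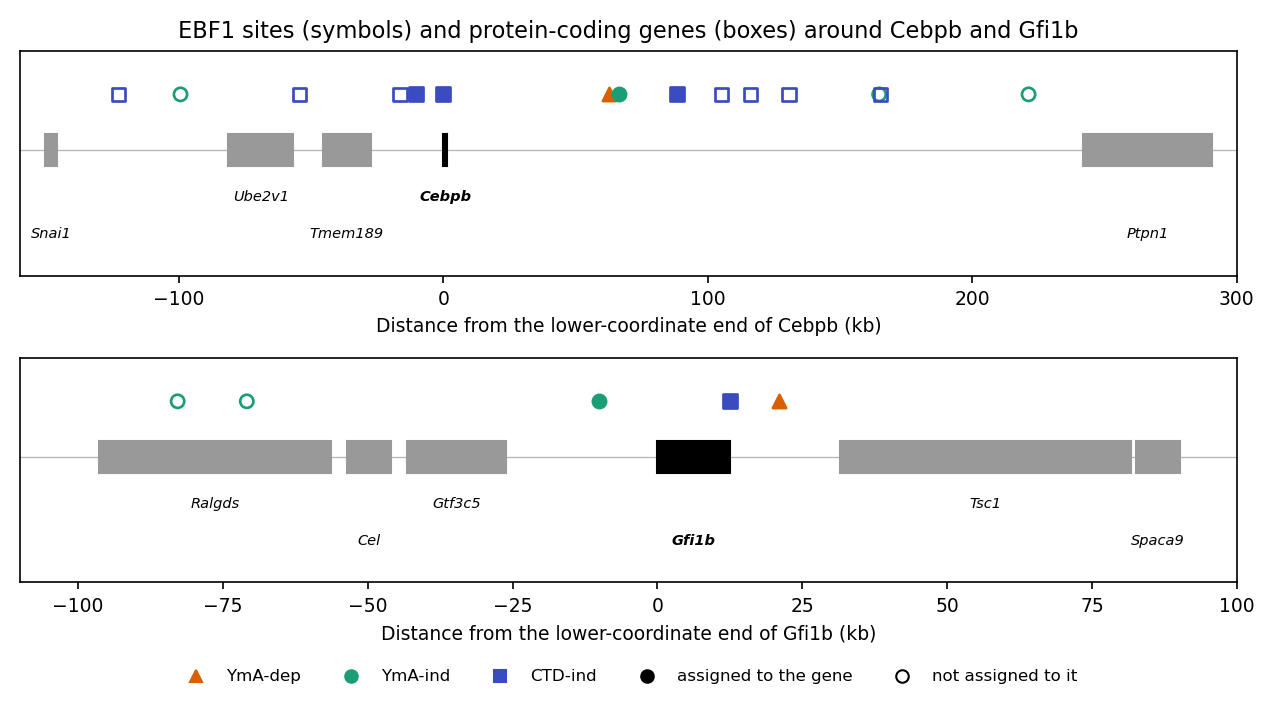
EBF1 sites (symbols, class by shape and colour, filled where given to the named gene) above protein-coding genes (boxes, the named gene in black) around Cebpb and Gfi1b, by distance in kb from the lower-coordinate end of each gene; genes cut by the edge of a panel are not drawn. At Cebpb the sites go on through the 240.3 kb up to Ptpn1, and at Gfi1b the 3 assigned sites lie within 10.1 kb of the gene.

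Gfi1, the paralog that acts in granulocyte and lymphocyte precursors, had no site (chr5:107716655-107725805). Its nearest site in the list, of class YmA-dep, was 312.3 kb away and given to Mtf2, and 73.5% of coding genes had a nearer one. The spaces of 54.8 kb and 19.0 kb beside it were empty. Yet 1 of its 2 promoter windows held CCCGAGGG, the same 8 letters as at Cebpb, 64 to 57 bases before the start. It is shown at chr5:107725842-107725889, minus strand, with 20 bases on each side and the match in capitals.
Gfi1: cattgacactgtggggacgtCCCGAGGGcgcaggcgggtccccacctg
Among the 10 promoter windows of the 8 regulators with one, 4 held the shorter form (1 each at Cebpb, Csf3r, Gfi1 and Tal1), and of these the window of Cebpb was the one with a site. None held the longer form. A match is a description of letters and not of binding.

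Klf4 encodes a zinc-finger factor of monocyte differentiation, known also as a factor used to reprogram cells. It spans 5.34 kb at chr4:55527137-55532475 on the minus strand and had 2 sites, both far before its start; 6.78% of coding genes had 2 or more. A CTD-ind site at chr4:55586186-55586485 was centred 53.9 kb away, and a YmA-ind site at chr4:55623419-55623718 was centred 91.1 kb away. Both lie inside the noncoding gene Gm12506, and the nearer one also inside the noncoding gene Gm12511. Neither was left to Klf4 when genes of any type competed. No other coding gene lies on that side of Klf4 for 1207.5 kb, up to Actl7b, and this space held 4 sites. One of these, YmA-dep, was 126.2 kb from Klf4 and over the limit, and another lay near Actl7b. On the other side a YmA-ind site 69.7 kb from Klf4 was given to Rad23b, which was nearer to it.

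Of the CSF receptor genes among the 9, only Csf3r was given a site, where 19.6% of all coding genes had one. Csf3r, the receptor gene for granulocyte colony-stimulating factor, had 1: a YmA-ind site at chr4:125968975-125969274, centred 54.3 kb before its span (chr4:126023441-126044975) in the 309.3 kb space towards the glutamate receptor gene Grik3. A nearer CTD-ind site, 2.24 kb beyond the far end of Csf3r at chr4:126047068-126047367, was centred inside Mrps15, a gene of the mitochondrial ribosome, and was given to that gene. Counting any site within 10 kb, also where another gene holds it, makes it 3 of 9 regulators (Cebpb, Csf3r and Gfi1b) with 4 sites, against 22.3% of all coding genes. The RefSeq promoter window of Csf3r belongs to a start inside the span. It held CCCAAGGG at chr4:126024600-126024607, inside the gene and 59 to 52 bases before that start, with no listed site there. Csf1r, the receptor gene for the macrophage factor CSF1, had none (chr18:61105572-61131139), and its nearest site was YmA-ind, 127.1 kb away inside the kinase gene Camk2a. Csf2ra, which encodes the alpha chain of the GM-CSF receptor, had none (chr19:61217191-61228461), and its nearest site was YmA-ind, 133.0 kb away inside Zfp950. The receptor genes Csf1r and Csf2ra thus stood with Cebpa: no site within 100 kb, as for 5 of the 9 regulators, while 53.4% of all coding genes had one that near.

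Tal1, at chr4:115056426-115071755, had none. It was the farthest of the 9 from any listed site, 345.6 kb from a YmA-dep site given to Trabd2b, and 75.1% of coding genes had a nearer one. The nearest sites of Gfi1 and Tal1 were thus both YmA-dep, those of Cebpa, Csf1r and Csf2ra YmA-ind, and those of Cebpb, Csf3r, Klf4 and Gfi1b CTD-ind. The median distance to the nearest site was 127 kb over the 9 regulators and 82.8 kb over all coding genes. The 9 fell into 3 close to a site, Klf4 at 53.9 kb, and 5 beyond 100 kb.

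**Figure D3:**
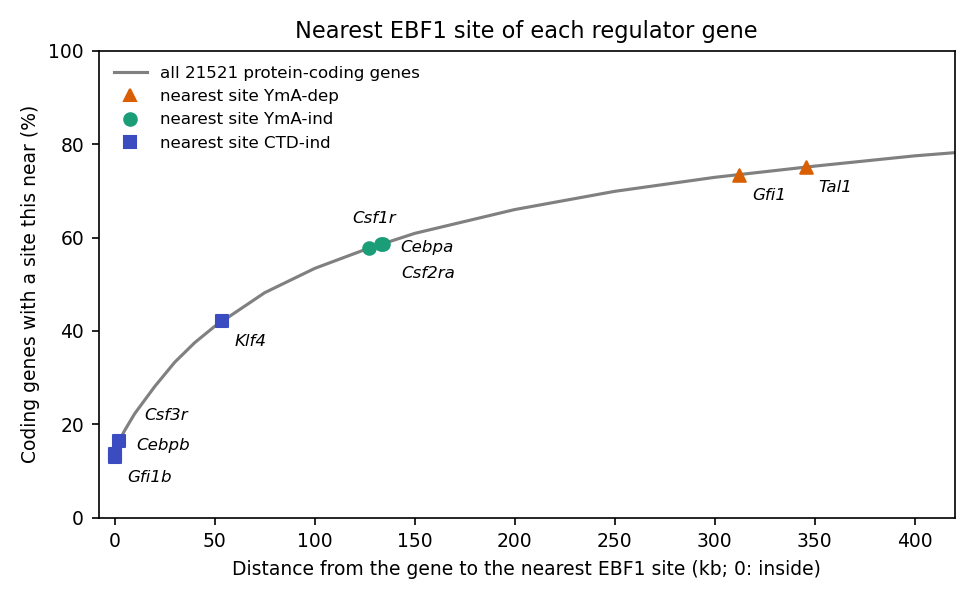
Distance from each regulator gene to the nearest EBF1 site of any assignment (x axis, kb), placed on the curve of the share of all 21521 coding genes with a site at least that near (y axis, %); shape and colour give the class of the nearest site. Gfi1b, Cebpb and Csf3r lie at 0, 0.205 and 2.24 kb, and Gfi1 and Tal1 beyond 300 kb.

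The sites of the regulators lay farther out than sites at genes in general. Of the 11, 1 was inside its gene (9.09%), against 59.6% of the 7082 sites given to any coding gene. Within 10 kb or inside lay 27.3% of the 11 and 79.5% of the 7082, and over 50 kb away lay 6 of 11 (54.5%) against 5.63%. The share within 10 kb depends on that cutoff, since sites 10.1 kb from Gfi1b and 10.5 kb from Cebpb fell just outside it. The sites over 50 kb away were all at Cebpb, Klf4 and Csf3r. The regulators had a median span of 11.3 kb, against 17.4 kb for all coding genes. The part of gene length and of wide spaces in these distances was not tested. Of 17 spaces that border a regulator, 7 held a site (41.2%), against 10.3% of all 19388 spaces. Their median length was 27.4 kb against 16.8 kb, and 12 of their 20 sites were in the spaces beside Cebpb.

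By class, the 11 sites were 2 YmA-dep (18.2%, exact 95% interval 2.28 to 51.8%), 4 YmA-ind (36.4%, 10.9 to 69.2%) and 5 CTD-ind (45.5%, 16.7 to 76.6%). Over all 7494 sites the shares were 11.9%, 54.1% and 34.0% in the same order. Each lay within the interval for the 11 sites, so a difference in make-up was not detectable with this number. The intervals take sites as independent, although the 11 come from 4 genes, with 5 at Cebpb and 3 at Gfi1b. Both sites within 1 kb of an end of a regulator, at Cebpb and Gfi1b, were CTD-ind. That class made up 63.3% of the 1140 sites this near an end of their coding gene over the whole list. The YmA-dep sites were at Cebpb and Gfi1b, 61.2 and 8.45 kb outside the gene.

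The other genes of these pathways were taken from 8 lists chosen by function. Of 72 such genes, 23 had a site (31.9%), and they were spread unevenly: 18 of 35 genes for related factors, partners and corepressors (51.4%) had one, against 2 of 26 effector genes of mature myeloid and erythroid cells (7.69%). The background is again 19.6% of coding genes. Without giving each site to 1 gene, the count of effectors depended on the distance. Any site inside or within 10 kb was found at 2 of 15 myeloid and 1 of 11 erythroid effectors, against 22.3% of coding genes. Any site within 100 kb was found at 8 of 15 and 4 of 11, against 53.4%. The lists differ in gene length and surroundings, whose part was not tested.

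**Figure D4:**
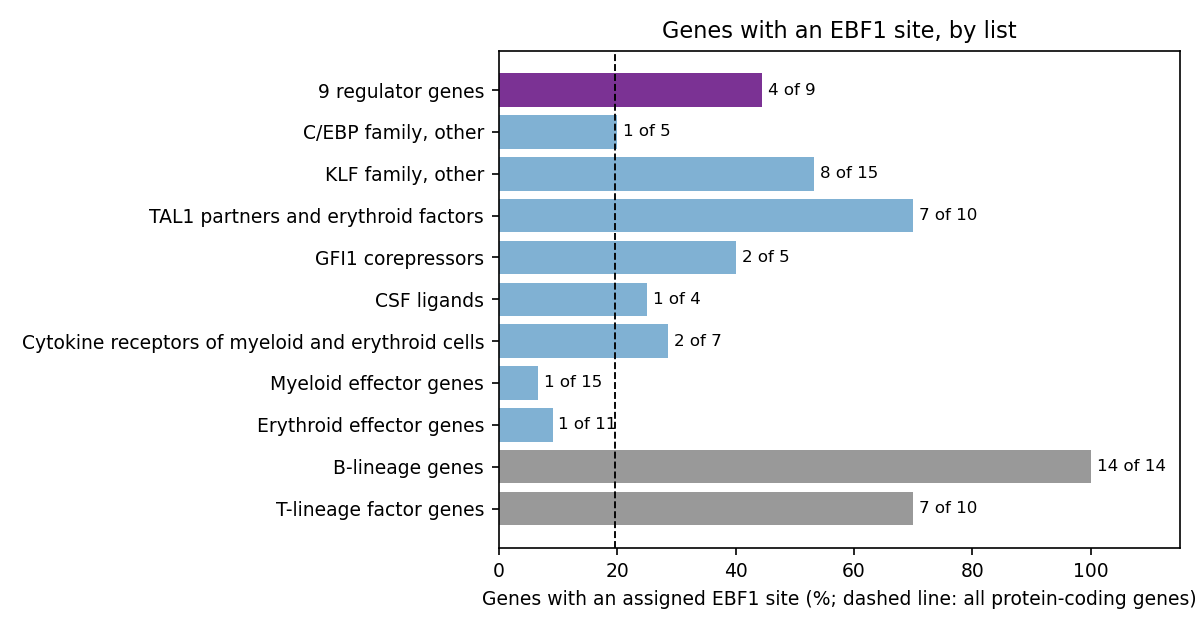
Share of genes with an assigned EBF1 site (x axis, %) for the 9 regulators, for 8 lists of related genes and for B- and T-lineage genes, with the number of genes with a site and the number in the list beside each bar. The dashed line is the 19.6% of all protein-coding genes; the effector lists lie left of it and the B-lineage list at 100%.

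Among partners of TAL1 and other erythroid factors, 7 of 10 genes had sites, 20 in all, with a median of 2 per gene. Zfpm1, which encodes the GATA1 cofactor FOG1, had 5 sites, 4 of them CTD-ind, all inside the gene or within 10 kb. Runx1, a factor needed for the first blood stem cells, had 4, of which 3 lay inside it, and Tcf3, the gene of the E proteins E12 and E47 that pair with TAL1, had 4, also with 3 inside. Lyl1, the close paralog of Tal1, had 2 YmA-ind sites, one centred 70 bp outside an end of the gene and one inside it. Nfe2, a factor of globin gene expression, had a CTD-ind site 121 bp outside. Cbfa2t3, a corepressor gene, had 2 within 10 kb, and Lmo2, the bridging partner of TAL1, had 2, the nearer 21.1 kb away. Gata1, Gata2 and Ldb1 had none. Tal1, like Gata1, Gata2 and Ldb1, was thus given no site, while its paralog Lyl1 had 2 and its partner genes Lmo2 and Tcf3 had 2 and 4.

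Of the KLF family other than Klf4, 8 of 15 genes had sites, with a median of 1. Klf13 had 7, including a CTD-ind site 544 bp from an end, Klf9 had 4, all inside or within 10 kb, and Klf2, a factor of lymphocyte quiescence, and Klf10 had 3 each. Klf3, Klf12, Klf14 and Klf17 had 1 each. Klf1, the erythroid member of the family, was given none, though a site given to another gene lay 3.27 kb from it. The same held for Klf11 and Klf16, with the nearest site 6.88 and 5.58 kb away. Of the other C/EBP family genes, 1 of 5 had a site: Ddit3, the stress factor CHOP, with a CTD-ind site inside the gene. Cebpd, Cebpe and Cebpg had none within 100 kb. Cebpz was given none, though a site given to another gene lay 14.3 kb from it. Of the corepressors that GFI1 proteins recruit, 2 of 5 had a site: Rcor1, with a YmA-dep site inside it, and Hdac1, with a YmA-ind site 2.06 kb outside. Ehmt2 was given none, though a site given to another gene lay 9.48 kb from it.

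Among the ligands, 1 of 4 had sites. Csf1, whose product binds the receptor made from Csf1r, had 3, all YmA-ind, and the nearest, at chr3:107760460-107760759, was centred 141 bp outside the gene. Csf1 kept none of the 3 when genes of any type competed. The nearest site covers a match to CCCNNGGG in the promoter window. Csf1r had no promoter window, so its promoter was not searched. The match is shown with 20 bases on each side at chr3:107760589-107760636, minus strand, because the ligand gene was given a listed site and its receptor gene was given none.
Csf1: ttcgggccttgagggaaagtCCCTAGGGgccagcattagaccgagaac
Il34, Csf2 and Csf3 had none. Of 7 other cytokine receptor genes, 2 had sites: Flt3, a receptor of early progenitors, with 2 YmA-ind sites inside, and Il5ra, the eosinophil receptor gene, with a YmA-dep site 293 bp outside. Csf2rb, Csf2rb2, Il3ra, Epor and Kit were given none, though a site given to another gene lay 8.37 kb from Epor. Csf2rb and Csf2rb2 are near-identical copies, so reads between them may not have been placed.

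Effector genes of mature cells were given few sites under this rule. Itgam, which encodes the integrin chain CD11b, was the single myeloid effector of 15 with sites, 3 in all and 1 of each class. Of 11 erythroid effectors, Tfrc, the transferrin receptor gene, had 2 YmA-ind sites, and the globin genes Hba-a1, Hba-a2, Hbb-bt and Hbb-bs, which are near copies within each pair, had none. The granule genes Mpo, Elane, Ctsg and Prtn3 and the lysozyme gene Lyz2 had none either, though a site of another gene lay 6.68 kb from Prtn3. For comparison, 14 of 14 B-lineage genes and 7 of 10 T-lineage factor genes had a site by the same rule. Of the sites at the 9 regulators, 27.3% were inside or within 10 kb, against 71.9% at B-lineage genes and 66.7% at T-lineage factor genes. Sites 10.1 kb from Gfi1b and 10.5 kb from Cebpb fell just outside that flank. These lists were small and chosen with such results known, and the differences were not tested.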

How the data were processed

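The authors deposited the sites of the EBF1 ChIP as positions in bp, each with a text class and without a score or p-value. Per the submitters' processing notes, Bowtie2, SAMtools and deepTools were used with GRCm38 (mm10). No source used here names the peak caller or its threshold, or says why all sites are 300 bp wide. A stricter peak threshold could therefore not be tried.

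Genes came from a RefSeq table of GRCm38.p6. Of its 49997 genes, those on Y, the mitochondrial genome or unplaced sequence and 345 on scaffolds were left out, which kept 49209, of which 21521 were protein-coding. The table has no exons. Strand and promoter windows came from the RefSeq promoter table, which matched 8 of the 9 regulators, and sequences are credited to it. Sites were represented by their centre and given to the shortest coding gene that held it or, failing that, to the closest within 100 kb; coordinates count from 1. The assignment recovered 400 of 400 simulated sites placed among the 21521 genes. Counts are given beside the same counts over all coding genes, with no test, since sites and genes of 1 library are not replicates. Intervals are exact binomial (Clopper-Pearson, scipy 1.17.1) and cover counting error only. Of 106 list genes, 105 matched a symbol or synonym; Ahsp did not. A few planned list genes are not reported here.

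Members and lists were chosen with earlier results of these data known. Genes named are the 9 regulators, genes of the other lists with a site (up to the 5 with the most, and further ones named after their values were seen), and the coding genes at or between the regulators and their sites. List genes without a site were also named after their values were seen. Alternatives were limits of 20 kb and none, competition by genes of any type, no competition with flanks of 10 and 100 kb, and any base of the site in place of its centre.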

Additional observations from a re-analysis of the deposited data

How the results depend on the processing

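The number of regulators with a site rested on the assignment rule. Of 150 alternative values, 120 stayed within 1.5 times the count or within the interval and 30 moved, 12 of these among counts of single regulators. The 120 include values that could hardly move. Cebpa, Csf1r, Csf2ra, Gfi1 and Tal1 had no site within 100 kb, so the 20 kb limit and both flanks had to leave them at 0. The class intervals were wide, such as 2.28 to 51.8% for YmA-dep. With a 20 kb limit, 2 regulators (Cebpb and Gfi1b) and 5 sites were left. When genes of any type competed, 1 regulator (Cebpb) and 2 sites were left, 1 of them inside or within 10 kb, and the classes became 0% YmA-dep, 0% YmA-ind and 100% CTD-ind. With no competition, a 10 kb flank gave 4 sites (0% YmA-ind) and a 100 kb flank gave 20. The 100 kb flank also gave 2 genes in the C/EBP list, 3 CSF ligands, 5 cytokine receptors, 8 myeloid effectors and 4 erythroid effectors. CSF ligands fell to 0 when genes of any type competed, and myeloid effectors were 2 with the 10 kb flank. Each alternative changes by construction how far a site may lie or which genes compete. No limit and any base of the site moved none of these counts beyond 1.5 times. No paired analysis was possible because each group holds 1 library. Depth is unknown, so the absence of a listed site limits nothing about weaker binding.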
